A study of Homo sapiens with 18 samples.

Results

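The 10 genes described here, TLR4, CHST7, CDYL2, NAP1L3, FAM133A, TF, LXN, EDIL3, ABCB5 and PLSCR4, were chosen by their differences between arrays with short hairpin RNAs (shRNAs) against FHL2 and GFP arrays, which run the same way in both melanoma lines of the study, A375M2 and C32. The first 5 were higher and the last 5 lower. Every probe set annotated to these genes alone was taken, 17 of the 23416 in the table, and all 17 were among the 19506 probe sets of 10940 genes that passed a filter on low signals. Since the shFHL2 differences chose the genes, these values are given as a description, with no test. The arms that did not enter the choice, shNFYA and PMEL in A375M2, were tested. Both are set against the same A375M2 GFP arrays that helped to choose the genes.

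Total RNA of the human melanoma lines was hybridised to Affymetrix 3′ arrays, 6 groups of 3. A375M2, a metastatic derivative of the line A375, carried shRNAs against human FHL2 (shFHL2), shRNAs against human NFYA (shNFYA), full-length human PMEL, or GFP, and C32 carried the FHL2 shRNAs or GFP. All groups were transduced with lentiviral vectors, so the control cells carry a vector as well. By the protocols given for A375M2, the FHL2 vectors were a pool of 3 shRNA constructs under puromycin selection, the PMEL vector used a CMV promoter and blasticidine, and cells with the most GFP were then sorted. Such a group is a sorted population and not a clone, and for the NFYA hairpins and for C32 these details are not given. A non-targeting shRNA is named for none of the groups, and the labels do not say which GFP control vector the GFP arrays hold. The shNFYA arm is the only other hairpin arm, and these data hold no shNFYA arm in C32.

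FHL2 is a LIM-domain scaffold protein that binds integrins and transcription factors, and NFYA is the DNA-binding subunit of NF-Y, which recognises CCAAT boxes in promoters. An shRNA is processed into a small RNA that guides cleavage of a matching transcript. Hairpins of different sequence can share a vector type and share the processing machinery but not the target, so a second hairpin arm shows how far a gene also moves with another shRNA. The 10 genes belong to no common pathway. They encode an innate immune receptor (TLR4), a Golgi sulfotransferase (CHST7), a reader of histone methylation (CDYL2), a member of the histone chaperone family (NAP1L3), an X-linked gene of little known function (FAM133A), the iron carrier of plasma (TF), a carboxypeptidase inhibitor (LXN), a secreted integrin ligand (EDIL3), a membrane transporter that marks melanoma subpopulations (ABCB5) and a member of the phospholipid scramblase family (PLSCR4).

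The promoters of 4 of the 5 higher genes are shown because CCAAT, the box that NF-Y binds, can be looked for in them directly, and because NAP1L3 and FAM133A lie head to head. Each sequence holds 250 bases before and 50 after the RefSeq gene start in build GRCh38.p14, 5′ to 3′ on the strand of the gene. Capitals mark CCAAT or its reverse complement ATTGG. TLR4 is at chr9:117704153-117704452 on the plus strand, CHST7 at chrX:46573515-46573814 on the plus strand, NAP1L3 at chrX:93673529-93673828 on the minus strand and FAM133A at chrX:93673956-93674255 on the plus strand.
TLR4: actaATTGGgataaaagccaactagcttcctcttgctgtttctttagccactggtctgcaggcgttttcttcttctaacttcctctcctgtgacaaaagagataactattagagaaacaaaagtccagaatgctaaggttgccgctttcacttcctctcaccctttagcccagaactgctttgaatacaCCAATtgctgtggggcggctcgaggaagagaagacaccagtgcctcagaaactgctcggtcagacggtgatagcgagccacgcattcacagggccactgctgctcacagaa
CHST7: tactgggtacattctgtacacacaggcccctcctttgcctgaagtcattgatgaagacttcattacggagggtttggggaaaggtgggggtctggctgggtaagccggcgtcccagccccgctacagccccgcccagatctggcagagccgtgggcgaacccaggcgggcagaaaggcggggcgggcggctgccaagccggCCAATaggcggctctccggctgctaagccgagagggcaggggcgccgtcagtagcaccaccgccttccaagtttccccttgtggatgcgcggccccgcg
NAP1L3: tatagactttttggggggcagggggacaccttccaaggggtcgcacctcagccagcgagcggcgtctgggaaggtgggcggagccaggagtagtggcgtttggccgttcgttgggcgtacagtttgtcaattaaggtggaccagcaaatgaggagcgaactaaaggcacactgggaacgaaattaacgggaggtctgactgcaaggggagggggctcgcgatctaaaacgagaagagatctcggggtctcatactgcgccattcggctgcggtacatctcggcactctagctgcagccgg
FAM133A: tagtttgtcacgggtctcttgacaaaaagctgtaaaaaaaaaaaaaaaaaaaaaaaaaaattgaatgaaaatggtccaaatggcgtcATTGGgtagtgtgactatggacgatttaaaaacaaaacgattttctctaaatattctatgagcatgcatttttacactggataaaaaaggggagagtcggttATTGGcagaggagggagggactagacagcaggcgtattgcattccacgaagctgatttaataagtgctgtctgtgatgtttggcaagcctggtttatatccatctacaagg

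The TLR4 and FAM133A windows held 2 matches each, at -246 and -61 from the start in TLR4 and at -163 and -61 in FAM133A. CHST7 held 1, at -49, and NAP1L3 held 0. The search took both strands and allowed no mismatch. Of 35116 human promoter windows of this length, 34.6% held a match and 10.8% held 2 or more. A RefSeq window was found for 8 of the 10 genes, with 11 windows in all. Of the 11, 5 held a match, the other two being TF at -99 and PLSCR4 at -12, each in the second of its 2 windows. A match is a string of letters and not a measured binding site. The E-box letters CACGTG or CATGTG, which the lineage factor MITF can bind, were in 0 of the 11 windows of these genes and in 17.6% of all windows.

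Several arrays were not independent, and the comparisons were read with that in view. The third C32 GFP array departed from the average of the other 2 by an SD of only 0.00806 log2 over 22359 probe sets, against 0.135 to 0.208 for arrays of the other groups from the average of the rest of their group. It was left out, so C32 GFP has 2 arrays. Replicate 3 of A375M2 GFP and of PMEL added up to the average level of replicates 1 and 2 of both groups (SD 0.00725), while the same sum in the shFHL2 and shNFYA arms had an SD of 0.256. Both of these arrays were kept in the fit as full replicates. SEs and p-values that use them therefore rest on fewer independent arrays than were counted. The lowest signals also fell into sets of exactly equal values: arrays of shFHL2 and shNFYA shared them in A375M2, and A375M2 GFP shared 0 with either. Comparisons of the A375M2 hairpin arms with GFP cross these sets, so group and array set cannot be told apart there. The comparison of shFHL2 with shNFYA in A375M2 does not cross them. In C32, shFHL2 and GFP arrays shared up to 372 such values. C32 GFP arrays also shared up to 215 with A375M2 GFP, while C32 shFHL2 arrays shared 0. The C32 comparison is therefore not shown to be free of such sets. A design note names 3 separate experiments for A375M2. Nothing says so for C32. Each SE uses 1 spread per probe set, shared by all 6 groups, so the C32 SEs also draw on A375M2 arrays. They do not measure a spread between separate C32 experiments.

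The targeted genes went with their labels. FHL2 stood at 7.01, 7.26 and 7.25 log2 in A375M2 shFHL2, against 11.27, 11.17 and 11.18 in A375M2 GFP, and at 6.10, 6.10 and 5.30 in C32 shFHL2, against 11.12 and 11.03 in C32 GFP. In A375M2 the drop was significant at -4.04 (SE 0.144, limma adjusted p = 2.15e-14), and in C32 at -5.24 (SE 0.161, limma adjusted p = 3.31e-14). In shNFYA arrays FHL2 differed from GFP by -0.11 (95% interval -0.41 to 0.19, limma adjusted p = 0.483). All 4 NFYA probe sets fell in the shNFYA arm, with differences of -3.46 to -0.96 log2 (largest limma adjusted p = 1.36e-07). NFYA fell in the A375M2 shFHL2 arm as well, at all 4 probe sets, with differences of -1.95 to -0.63 (largest limma adjusted p = 2.78e-05), and in C32 shFHL2 its 4 differences, from -0.20 to -0.01, did not pass the test (smallest limma adjusted p = 0.121). Over all probe sets, 39.8% were higher and 44.3% lower in A375M2 shFHL2, and 30.9% and 29.4% in C32 shFHL2.

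**Figure D1:**
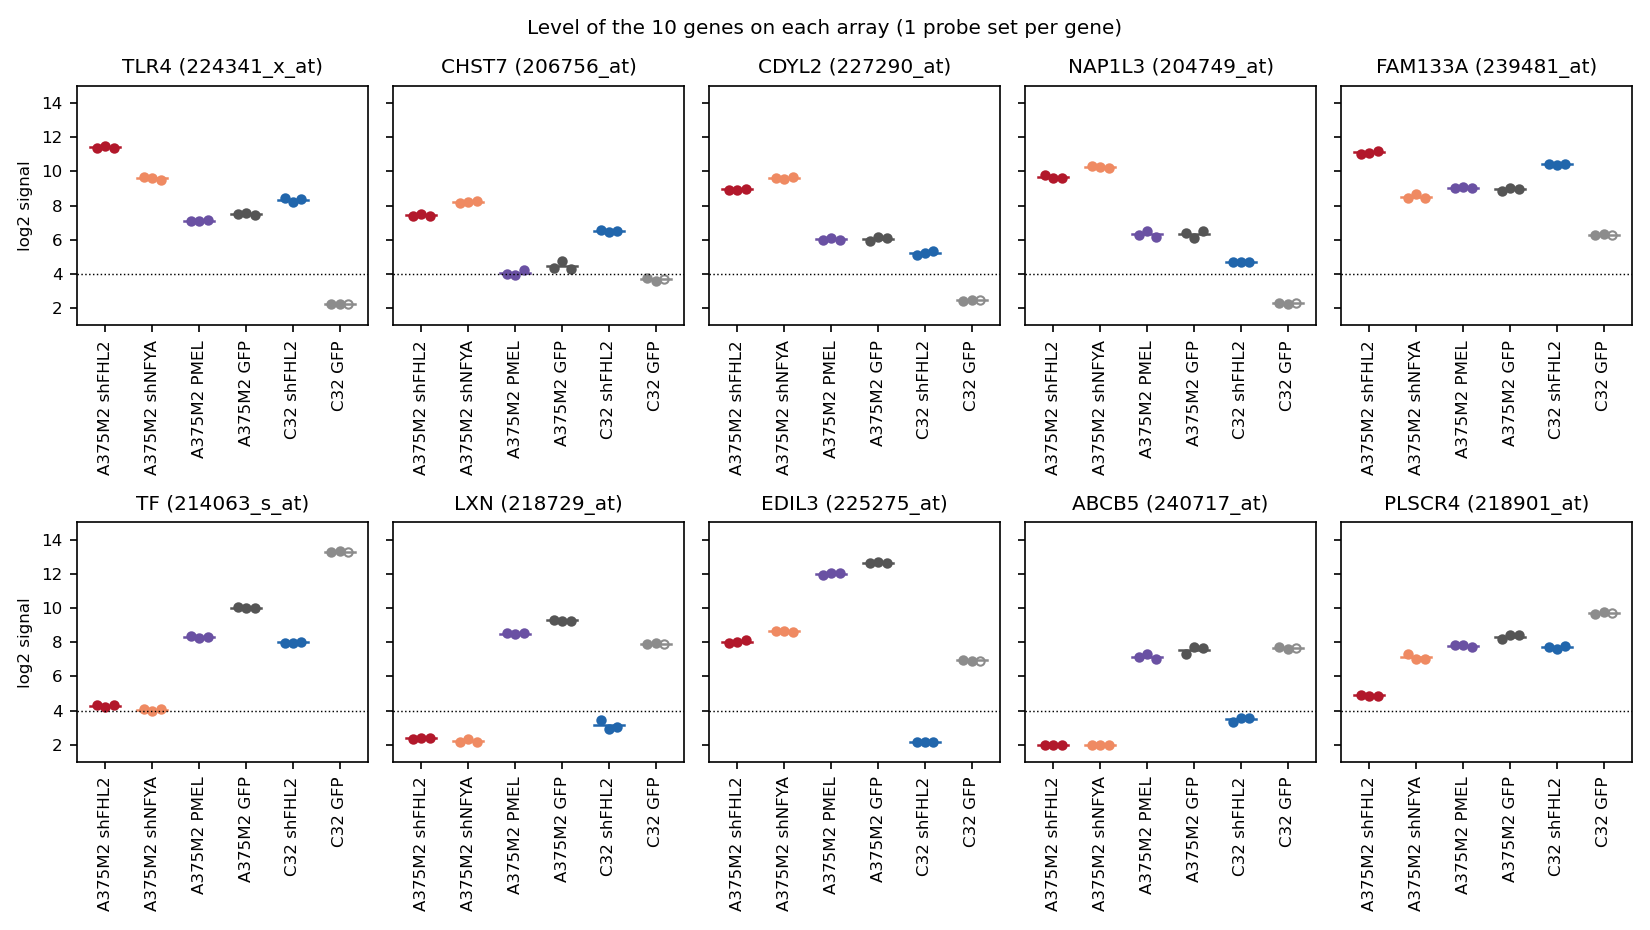
Log2 signal (vertical axis) of the 10 genes, 1 probe set each, on every array of the 6 groups. Points are arrays, short lines are group means, the open circle is the C32 GFP array that was left out, and the dotted line marks log2 4, under which folds depend on the lowest signals of the array. The 3 shNFYA arrays lie close to shFHL2 and far from GFP for CHST7, CDYL2, NAP1L3, TF, LXN, EDIL3 and ABCB5, between them for TLR4 and PLSCR4, and below GFP for FAM133A.

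The genes were ranked by the smaller of their 2 shFHL2 differences among genes called in the same direction in both lines. TLR4, CHST7, CDYL2, NAP1L3 and FAM133A ranked 1, 2, 3, 5 and 9 of 1628 higher genes, and TF, LXN, EDIL3, ABCB5 and PLSCR4 ranked 2, 3, 4, 5 and 38 of 1764 lower genes, which are 14.9% and 16.1% of all genes. At 2-fold or more in both lines there were 93 higher and 187 lower genes, which is 0.85% and 1.71% of the genes. Just outside the last members lay MGLL, a monoacylglycerol lipase, at 2.06 log2 in A375M2 and 2.22 in C32, and ADAM12, a metalloprotease, at -1.99 and -2.93. The last members themselves were FAM133A at 2.17 and 4.11 and PLSCR4 at -3.44 and -2.00. Every shFHL2 array lay above every GFP array of its line at all 9 probe sets of the higher genes and below at all 8 of the lower genes. Over all probe sets, 40.6% lay above and 45.5% below in A375M2, and 36.9% and 35.9% in C32. The rule fixed these directions, and nothing is read from them.

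TLR4, the receptor for bacterial lipopolysaccharide, was the top gene of the higher side, and with the NFYA hairpin it rose as well, but less. Its brightest probe set, 224341_x_at, read 11.35, 11.50 and 11.38 in A375M2 shFHL2, 9.69, 9.62 and 9.50 in shNFYA, 7.09, 7.13 and 7.17 in PMEL, and 7.52, 7.56 and 7.47 in GFP. In C32 it read 8.46, 8.19 and 8.40 in shFHL2, against 2.25 and 2.25 in GFP. No 2 of the 4 A375M2 groups overlapped. The difference between shNFYA and GFP was 2.09 log2 (SE 0.0755, limma adjusted p = 1.85e-14), higher in 3 of 3 arrays. The shFHL2 difference was 3.89 in A375M2 and 6.10 in C32, the last from a level under log2 4 in C32 GFP, and 4.35 with values under log2 4 set to 4. shFHL2 exceeded shNFYA by 1.80 log2 (95% interval 1.65 to 1.96), a 3.49-fold difference, given as a description because shFHL2 arrays chose the gene.

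The 4 TLR4 probe sets agreed in direction but not in size, and in C32 the gene rests on 2 of them. The probe set 232068_s_at differed by 4.03 in A375M2 shFHL2, by 2.29 in shNFYA (SE 0.128, limma adjusted p = 1.02e-11) and by 5.19 in C32 shFHL2. The other 2, 1552798_a_at and 221060_s_at, differed by 4.64 and 4.90 in A375M2 shFHL2 and by 0.72 and 0.68 in C32, where every array was under log2 4 and the difference was 0 with that floor. With shNFYA they rose by 1.02 and 2.02 (limma adjusted p = 1.7e-05 and 2.07e-09), from GFP levels under log2 4. With values under log2 4 set to 4, these rises were 0.33 and 1.85. For these 2 probe sets shFHL2 stood 3.63 and 2.88 log2 above shNFYA, more than for the bright ones. Probe sets of a gene read different stretches of its transcripts, and the suffix of 224341_x_at marks probes that may also match other sequences. Which transcripts they read was not analysed here.

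**Figure D2:**
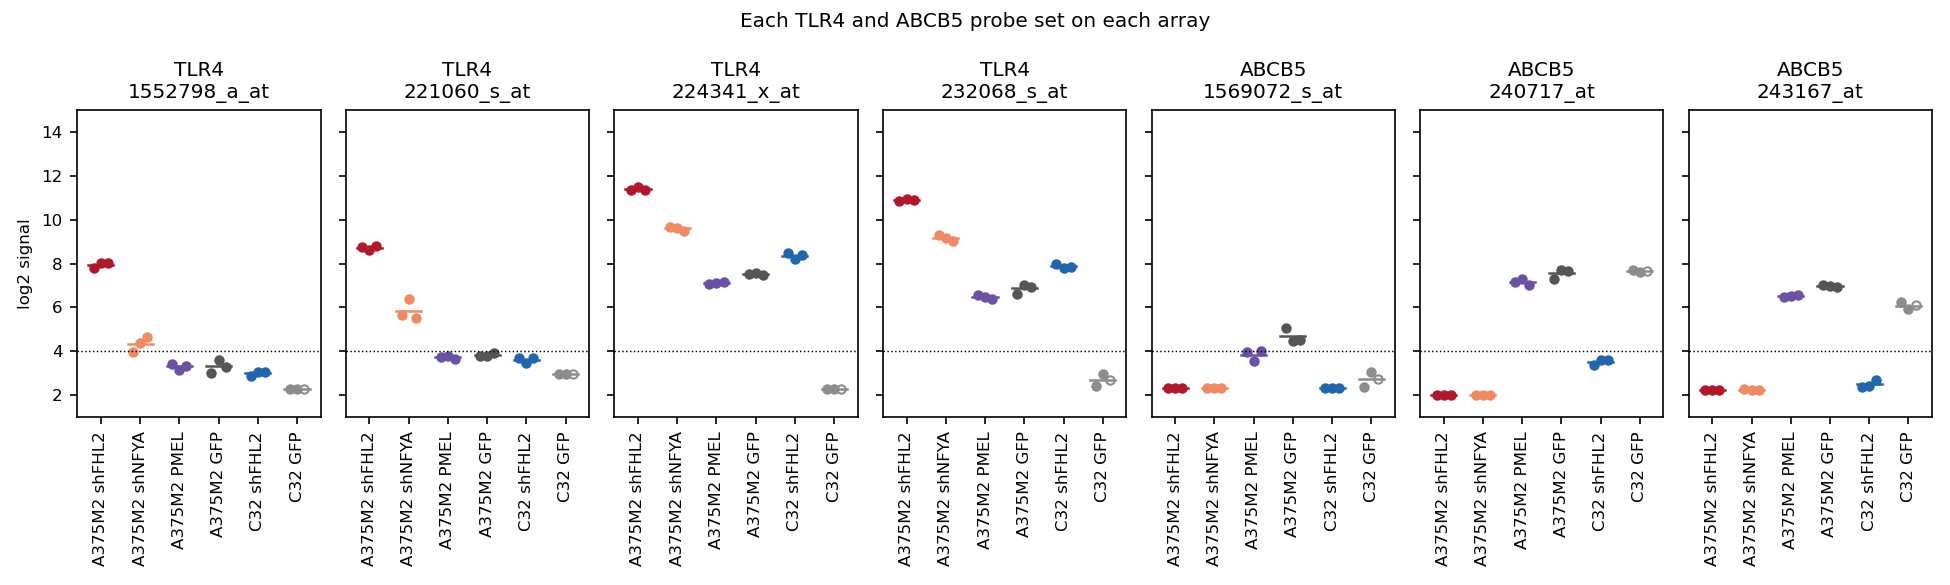
Log2 signal (vertical axis) of each TLR4 and ABCB5 probe set on every array of the 6 groups, drawn as in the plot of levels. In C32 shFHL2, the TLR4 probe sets 224341_x_at and 232068_s_at stand above log2 7 on every array, while 1552798_a_at and 221060_s_at stay under log2 4.

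CHST7, a sulfotransferase that acts on chondroitin and N-acetylglucosamine, was higher with both hairpins and more so with the NFYA hairpin. It read 7.41, 7.50 and 7.39 in A375M2 shFHL2, 8.17, 8.19 and 8.27 in shNFYA, 3.99, 3.93 and 4.21 in PMEL, and 4.34, 4.77 and 4.29 in GFP. The C32 arrays read 6.58, 6.48 and 6.53 in shFHL2, against 3.76 and 3.61 in GFP. Both hairpin arms of A375M2 lay above all PMEL and GFP arrays. CHST7 rose by 3.75 log2 in shNFYA (SE 0.119, limma adjusted p = 2.93e-15), a 13.4-fold difference, and its shFHL2 differences were 2.97 in A375M2 and 2.84 in C32.

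CDYL2, which binds methylated histone H3 through its chromodomain, followed the same order. It read 8.94, 8.93 and 8.98 in A375M2 shFHL2, 9.64, 9.55 and 9.66 in shNFYA, 5.98, 6.13 and 5.99 in PMEL, and 5.94, 6.16 and 6.12 in GFP. PMEL and GFP overlapped. C32 signals were 5.14, 5.22 and 5.36 in shFHL2, against 2.44 and 2.49 in GFP. CDYL2 rose by 3.55 log2 in shNFYA (SE 0.0877, limma adjusted p = 8.58e-17). The shFHL2 differences were 2.88 in A375M2 and 2.77 in C32, and the C32 value was 1.24 with values under log2 4 set to 4.

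NAP1L3, a relative of the nucleosome assembly protein NAP1, was highest in shNFYA. The arrays read 9.82, 9.61 and 9.61 in A375M2 shFHL2, 10.30, 10.25 and 10.19 in shNFYA, 6.31, 6.51 and 6.15 in PMEL, and 6.38, 6.11 and 6.50 in GFP. In C32 they read 4.69, 4.70 and 4.69 in shFHL2, against 2.32 and 2.25 in GFP. The hairpin arms lay apart from PMEL and GFP, which overlapped. NAP1L3 rose by 3.91 log2 in shNFYA (SE 0.108, limma adjusted p = 3.88e-16). Its shFHL2 differences were 3.35 in A375M2 and 2.41 in C32, the C32 value 0.69 with values under log2 4 set to 4.

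FAM133A, the head-to-head neighbour of NAP1L3, went the other way with the NFYA hairpin. Probe set 239481_at read 11.05, 11.10 and 11.21 in A375M2 shFHL2, 8.46, 8.67 and 8.43 in shNFYA, 9.04, 9.07 and 9.01 in PMEL, and 8.87, 9.01 and 8.98 in GFP. Its C32 arrays read 10.44, 10.38 and 10.44 in shFHL2, against 6.28 and 6.34 in GFP. The shNFYA arrays lay below all GFP arrays, and the shFHL2 arrays above. FAM133A fell by 0.43 on the log2 scale in shNFYA (SE 0.0626, limma adjusted p = 4.47e-06), lower in 3 of 3 arrays. Its second probe set, 231131_at, fell by 1.51 (SE 0.197, limma adjusted p = 1.23e-06). The shFHL2 differences of these probe sets were 2.17 and 1.13 in A375M2 and 4.11 and 4.80 in C32, and shFHL2 stood 2.60 and 2.64 log2 above shNFYA. All of these signals were above log2 4 except 231131_at on 1 of the 2 C32 GFP arrays, at 3.80.

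TF, transferrin, which carries iron to cells, was far lower with either hairpin in A375M2. Probe set 214063_s_at read 4.30, 4.18 and 4.30 in A375M2 shFHL2, 4.10, 3.96 and 4.06 in shNFYA, 8.36, 8.24 and 8.29 in PMEL, and 10.03, 9.98 and 10.02 in GFP. In C32 the arrays read 7.97, 7.96 and 8.04 in shFHL2, against 13.28 and 13.32 in GFP. PMEL stood between the hairpin arms and GFP with no overlap. TF fell by 5.97 on the log2 scale in shNFYA (SE 0.0661, limma adjusted p = 2.56e-21), a 62.6-fold difference, and its shFHL2 differences were -5.75 in A375M2 and -5.31 in C32. The second probe set, 203400_s_at, differed by -7.74 in shNFYA, -7.73 in A375M2 shFHL2 and -5.72 in C32 shFHL2. Both hairpin arms were near the low end of the signal, at log2 2.68 to 2.82 on that probe set, so their order is not read.

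LXN, latexin, an inhibitor of tissue carboxypeptidases, was at the low end of the signal in both hairpin arms of A375M2. It read 2.35, 2.38 and 2.38 in A375M2 shFHL2, 2.18, 2.33 and 2.18 in shNFYA, 8.53, 8.47 and 8.51 in PMEL, and 9.29, 9.27 and 9.26 in GFP. In C32 it read 3.45, 2.91 and 3.07 in shFHL2, against 7.88 and 7.96 in GFP. LXN fell by 7.05 on the log2 scale in shNFYA (SE 0.115, limma adjusted p = 2.91e-19). The shFHL2 differences were -6.91 in A375M2 and -4.78 in C32, and -5.27 and -3.92 with values under log2 4 set to 4.

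EDIL3, a secreted matrix protein that binds the integrin alphaV beta3, was lower with both hairpins from a high level in A375M2. It read 7.94, 8.01 and 8.11 in A375M2 shFHL2, 8.66, 8.65 and 8.57 in shNFYA, 11.95, 12.06 and 12.02 in PMEL, and 12.62, 12.68 and 12.64 in GFP. The C32 arrays read 2.17, 2.17 and 2.18 in shFHL2, against 6.94 and 6.92 in GFP. No 2 of the 4 A375M2 groups overlapped, and none of their arrays was near log2 4. EDIL3 fell by 4.02 on the log2 scale in shNFYA (SE 0.0559, limma adjusted p = 3.88e-20), and shFHL2 stood 0.61 below shNFYA (95% interval -0.73 to -0.49). The shFHL2 differences were -4.63 in A375M2 and -4.76 in C32, the C32 value -2.93 with values under log2 4 set to 4.

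ABCB5, an ATP-binding cassette transporter, was at the low end of its own probe sets in both hairpin arms. Probe set 240717_at read 2.0 on all 6 arrays of shFHL2 and shNFYA in A375M2, 7.15, 7.29 and 7.04 in PMEL, and 7.29, 7.71 and 7.68 in GFP. C32 signals were 3.35, 3.58 and 3.58 in shFHL2, against 7.72 and 7.62 in GFP. ABCB5 fell by 5.56 on the log2 scale in shNFYA (SE 0.117, limma adjusted p = 9.55e-18), with the same value in A375M2 shFHL2, and differed by -4.17 in C32 shFHL2. Because both hairpin arms sit at the floor of the probe set, a difference between them could not be measured. With values under log2 4 set to 4, the difference was -3.56 in both hairpin arms and -3.67 in C32. Probe set 243167_at differed by -4.73 in shNFYA, -4.74 in A375M2 shFHL2 and -3.60 in C32 shFHL2, and by -2.97, -2.97 and -2.08 with that floor. The dimmer probe set 1569072_s_at differed by -0.38 in C32 shFHL2, and by 0 with values under log2 4 set to 4.

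PLSCR4 was the lower gene with the smallest share of its shFHL2 difference in the shNFYA arm. It read 4.94, 4.86 and 4.86 in A375M2 shFHL2, 7.30, 7.02 and 7.0 in shNFYA, 7.81, 7.85 and 7.71 in PMEL, and 8.17, 8.40 and 8.39 in GFP. Its C32 arrays read 7.74, 7.63 and 7.76 in shFHL2, against 9.67 and 9.75 in GFP. No groups of A375M2 overlapped, and every array was above log2 4. PLSCR4 fell by 1.22 on the log2 scale in shNFYA (SE 0.0903, limma adjusted p = 5.91e-10), and its shFHL2 differences were -3.44 in A375M2 and -2.00 in C32. shFHL2 stood 2.22 log2 below shNFYA (95% interval -2.41 to -2.03).

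All 17 probe sets of the 10 genes passed the test in shNFYA against GFP, 7 higher and 10 lower. ABCB5 1569072_s_at passed the filter on low signals only through A375M2 GFP, so its lower call was fixed by the filter, and without it 7 of 16 were higher and 9 lower. Over all probe sets, 42.1% were higher and 44.1% lower in that comparison, so passing it is common and the sizes say more than the count. As a percentage of the A375M2 shFHL2 difference on the log2 scale, the shNFYA difference was 126 for CHST7, 123 for CDYL2, 117 for NAP1L3, 86.9 for EDIL3, 35.4 for PLSCR4, 53.6 and 56.9 at the bright TLR4 probe sets and 41.2 and 21.9 at the dim ones, and -20.0 and -134 at the FAM133A probe sets 239481_at and 231131_at. LXN and all ABCB5 probe sets were under log2 4 in both hairpin arms, and TF was near it or under it. The percentages of LXN, ABCB5 and TF are therefore set by the low end of the signal and not read. Both dim TLR4 probe sets averaged under log2 4 in A375M2 GFP, so 41.2 and 21.9 rest in part on low signals. Over the 1166 genes with an A375M2 shFHL2 difference of at least 2 log2 in either direction, the median percentage was 100. The quartiles were 82.2 and 119, and 1.29% of the genes had the opposite sign. Genes at the low end of the signal in both hairpin arms were not set aside in these values. Such genes can come near 100 through low signals alone, so the quartiles are only a rough scale for the members. CHST7 and CDYL2 lay above the upper quartile, NAP1L3 and EDIL3 between the quartiles, TLR4 and PLSCR4 below the lower quartile, and FAM133A had the opposite sign. These percentages share the GFP arrays in both terms, and their denominator chose the genes. Both hairpin arms also share an array set that GFP does not. NFYA itself differed by -1.95 to -0.63 in A375M2 shFHL2. The percentages therefore cannot tell apart the hairpin as such, lower NFYA in both arms and the array set. With 1 probe set per gene, and with LXN, ABCB5 and TF not read, the shFHL2 arrays lay above all shNFYA arrays for TLR4 and FAM133A and below for CHST7, CDYL2, NAP1L3, EDIL3 and PLSCR4. Over all probe sets, 33% lay above and 37.8% below. No other hairpin was measured in C32, so the C32 values cannot be divided in this way.

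**Figure D3:**
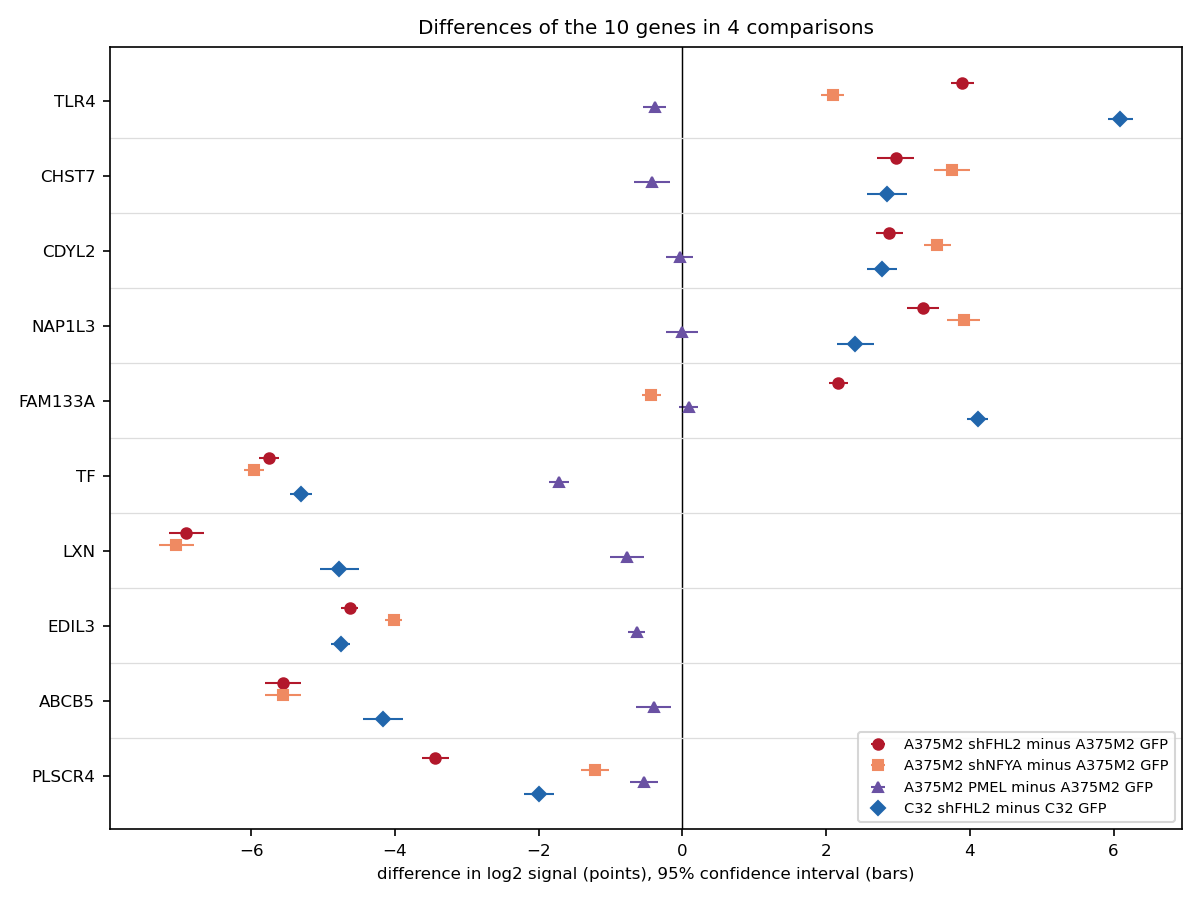
Log2 differences (horizontal axis) of the 10 genes, 1 probe set each, for A375M2 shFHL2, shNFYA and PMEL against A375M2 GFP and for C32 shFHL2 against C32 GFP, with 95% confidence intervals from the fit. The 3 A375M2 differences share the GFP arrays. FAM133A is the gene whose shNFYA difference, -0.43, lies on the other side of 0 from its shFHL2 differences.

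With the PMEL transgene all 5 lower genes fell and no higher gene rose. The lower genes fell at all 8 of their probe sets, or at 7 of 7 without ABCB5 1569072_s_at, which passed the filter only through A375M2 GFP, and of the 9 probe sets of the higher genes 0 rose, 3 fell and 6 did not pass the test. Over all probe sets, 20.3% were higher and 17.6% lower in this comparison. The GFP arrays used here helped to choose the genes, which by itself favours a fall of the lower genes and a rise of the higher ones. TF fell most, by 1.71 on the log2 scale (SE 0.0661, limma adjusted p = 4.24e-12), and its second probe set fell by 1.72. LXN fell by 0.77, EDIL3 by 0.64, PLSCR4 by 0.53 and ABCB5 by 0.40, 0.44 and 0.85 at its 3 probe sets. The 3 probe sets of higher genes that fell were TLR4 224341_x_at (-0.39, limma adjusted p = 0.000619), TLR4 232068_s_at (-0.40, limma adjusted p = 0.0209) and CHST7 (-0.42, limma adjusted p = 0.00988). For CDYL2, NAP1L3 and FAM133A the differences were -0.04, -0.01 and 0.09, with 95% intervals from -0.225 to 0.145, from -0.235 to 0.221 and from -0.046 to 0.218. Leaving out A375M2 GFP replicate 2 ended the calls of CHST7 (-0.27, limma adjusted p = 0.0637), TLR4 232068_s_at (0.0921) and ABCB5 240717_at (0.0629), and the last 2 were also lost without GFP replicate 3 or PMEL replicate 3, and TLR4 232068_s_at without PMEL replicate 2 (limma adjusted p = 0.0501). All 3 calls were also lost when only the arrays of these 2 groups were fitted (limma adjusted p = 0.079 for CHST7, 0.057 for TLR4 232068_s_at and 0.0737 for ABCB5 240717_at). With replicate 3 of both groups left out, TLR4 232068_s_at stood at -0.31 (limma adjusted p = 0.177) and ABCB5 240717_at at -0.28 (limma adjusted p = 0.182).

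The lines started from different levels of these genes. TLR4, CDYL2, NAP1L3 and FAM133A were lower in C32 GFP than in A375M2 GFP, by -5.26, -3.61, -4.04 and -2.65 log2 (brightest probe set), and CHST7 by -0.78. In C32 GFP all of these but FAM133A were under log2 4. TF was 3.29 log2 higher in C32 GFP and PLSCR4 1.39 higher, while EDIL3 differed by -5.72 and LXN by -1.35. ABCB5 read 7.72 and 7.62 in C32 GFP and 7.29, 7.71 and 7.68 in A375M2 GFP, which overlap.

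NAP1L3 and FAM133A are divergent neighbours on chromosome X, with RefSeq starts 628 bp apart and 0 other RefSeq genes between them. The windows printed above are 127 bp apart. Of 27305 genes with a window, 20.1% have a start on the other strand within 1000 bp. In shNFYA, NAP1L3 rose by 3.91 and FAM133A fell by 0.43 and 1.51, while with shFHL2 both were higher in both lines. CHST7 is on chromosome X as well, so 3 of the 5 higher genes are X-linked, while X holds 3.44% of 10931 genes with a known chromosome and 4.35% of the genes at least 2-fold higher in both lines. TF, LXN and PLSCR4 are on chromosome 3, which holds 5.84% of genes and 6.95% of those at least 2-fold lower in both lines. With 5 genes a side these counts are a description.

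**Figure D4:**
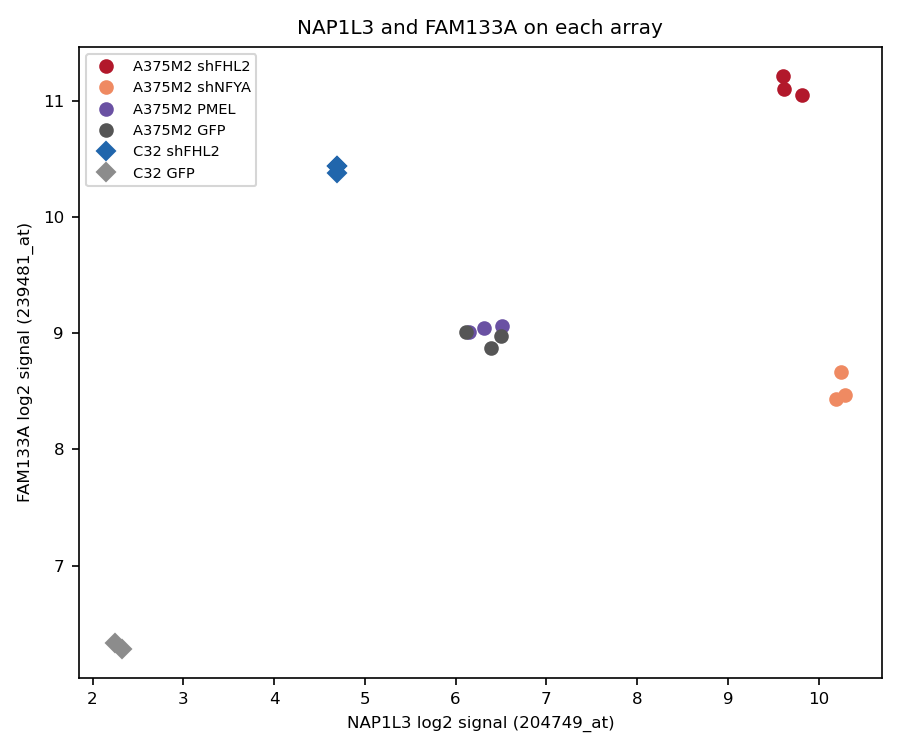
Log2 signal of FAM133A (vertical axis, 239481_at) against NAP1L3 (horizontal axis) on 17 arrays. The A375M2 shFHL2 arrays are high for both genes, the shNFYA arrays are high for NAP1L3 and below the GFP arrays for FAM133A, and the C32 GFP arrays are lowest for both.

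The 10 genes were unevenly alike over the 17 arrays. The arrays share 6 group means, so these correlations describe groups more than arrays. TLR4 and CDYL2 were most like the other 4 higher genes (Pearson r = 0.954 and 0.935), and FAM133A least (0.618). Among the lower genes LXN and ABCB5 were most like the other 4 (0.984 and 0.972), and EDIL3 least (0.383), with its low level in C32. Outside the members, HTR7, a serotonin receptor, PDCD6, a calcium-binding protein, CHCHD7 and NCBP1, a subunit of the cap-binding complex, were most like the mean of the 5 higher genes (r = 0.983, 0.982, 0.975 and 0.973). HTR7 differed by 1.78 in A375M2 shFHL2, 2.13 in shNFYA and 2.21 in C32 shFHL2. PGAP6, ENTREP1, GSTM3, a glutathione transferase, and CRISPLD1 were most like the mean of the 5 lower genes (r = 0.993, 0.981, 0.979 and 0.977). PGAP6 differed by -2.00 in A375M2 shFHL2, -1.64 in shNFYA and -1.34 in C32 shFHL2.

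The co-receptor of TLR4 moved against it. LY96 (MD-2), the co-receptor through which TLR4 binds lipopolysaccharide, fell in all 3 hairpin comparisons, by 2.84 log2 in A375M2 shFHL2 (limma adjusted p = 1.08e-17), by 2.44 in shNFYA (limma adjusted p = 5.34e-17) and by 0.46 in C32 shFHL2 (limma adjusted p = 8.72e-06). MYD88, the adaptor, fell by 0.48 in A375M2 shFHL2 and rose by 0.96 in shNFYA and by 0.15 in C32 shFHL2. TLR3, the receptor for double-stranded RNA, rose by 1.26 and 1.14 in the hairpin arms of A375M2 and fell by 2.75 in C32, and TLR1 fell by 1.19, 1.05 and 2.36, which with values under log2 4 set to 4 became 0, 0 and -0.50. Of 11 measured genes of the receptor complex and its signalling, 9 rose and 2 fell in shNFYA (median 0.58, against 0.00 over all genes), 5 rose and 3 fell in A375M2 shFHL2 (median 0.17, against -0.04), and 5 rose and 3 fell in C32 shFHL2 (median 0.11, against 0.00). At the gene level, 43.5% of all genes were higher and 43.2% lower in shNFYA, 41% and 44.1% in A375M2 shFHL2, and 32.1% and 30.1% in C32 shFHL2; these shares are the background for the lists that follow.

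Around TF, 10 measured genes of iron handling moved both ways. In shNFYA 4 rose and 6 fell (median -0.37), in A375M2 shFHL2 also 4 and 6 (median -0.53), and in C32 shFHL2 2 rose and 5 fell (median -0.13). SLC11A2, the divalent metal transporter, fell by 1.66, 1.56 and 1.14 in those comparisons, STEAP3, the endosomal ferrireductase, by 3.01, 1.92 and 0.59, and FTL, ferritin light chain, by 1.44, 0.72 and 0.21. TFRC, the transferrin receptor, rose by 0.99 in shNFYA and 0.72 in C32 shFHL2 and fell by 0.40 in A375M2 shFHL2. LCN2, a siderophore-binding protein, rose by 7.83 in shNFYA and 8.94 in A375M2 shFHL2 (6.04 and 7.14 with values under log2 4 set to 4) and differed by 0.00 in C32.

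Among 11 receptors and bridging genes related to EDIL3, 5 rose and 4 fell in shNFYA (median 0.22), 5 rose and 6 fell in A375M2 shFHL2 (median -0.29), and 0 rose and 6 fell in C32 shFHL2 (median -0.19). AXL, a receptor kinase that binds GAS6, rose by 6.96 in shNFYA and 7.29 in A375M2 shFHL2 and fell by 2.22 in C32. In C32 AXL averaged 2.03 in shFHL2, against 4.25 in GFP, so that a floor at log2 4 leaves -0.36 of the C32 difference. ITGB3, the beta chain of the EDIL3 receptor, rose by 1.42 and 0.67 and fell by 1.10 in C32. ITGB5 fell by 2.10, 1.14 and 0.31, and PROS1, protein S, fell as well, with differences of -2.66, -3.31 and -0.85.

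Chondroitin sulfate synthesis, to which CHST7 contributes, had more genes lower than higher. Of 18 measured genes, 5 rose and 10 fell in shNFYA (median -0.29), 4 rose and 13 fell in A375M2 shFHL2 (median -0.75), and 2 rose and 11 fell in C32 shFHL2 (median -0.36). CSGALNACT1, an initiating transferase, fell by 2.33, 1.32 and 0.82, and the sulfotransferase CHST11 by 1.43, 1.85 and 0.62. DSEL, a dermatan sulfate epimerase homologue, rose by 0.52 in shNFYA, differed by -2.00 in A375M2 shFHL2, where it fell (-0.83 with values under log2 4 set to 4), and rose by 4.05 in C32.

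Of 17 measured paralogs of the 10 genes, 6 rose and 10 fell in shNFYA (median -0.27), 5 rose and 10 fell in A375M2 shFHL2 (median -0.37), and 4 rose and 8 fell in C32 shFHL2 (median -0.20). ABCB6, a mitochondrial transporter related to ABCB5, fell by 4.03, 2.04 and 1.07. NAP1L2, named after its values were seen, rose by 0.71 in shNFYA and 4.54 in A375M2 shFHL2 (0 and 2.81 with values under log2 4 set to 4) and stood at -0.11 in C32 (limma adjusted p = 0.766). Of 11 histone methylation partners of the family of CDYL2, 3 rose and 7 fell in shNFYA (median -0.33), 5 rose and 5 fell in A375M2 shFHL2 (median 0.02), and 5 rose and 3 fell in C32 shFHL2 (median 0.10). EHMT2, the H3K9 methyltransferase G9a, fell with differences of -2.48 in shNFYA and -2.31 in A375M2 shFHL2 and stood at 0.10 in C32 (limma adjusted p = 0.505), and SUZ12 fell by 0.52 in shNFYA and rose by 0.12 and 0.48 with shFHL2.

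Of 8 markers used for stem-like melanoma cells, the population that ABCB5 is known for, 1 rose and 5 fell in shNFYA (median -1.55), 1 rose and 6 fell in A375M2 shFHL2 (median -0.74), and 1 rose and 6 fell in C32 shFHL2 (median -0.45). A marker that fell in both A375M2 hairpin arms averaged 2.47 in each, against 3.79 in GFP, all under log2 4. Its shNFYA difference, -1.32, lies next to the median there, so that median rests in part on low signals. NES, nestin, fell by 2.05, 2.03 and 0.28, and CD44, a hyaluronan receptor, by 1.78, 1.05 and 0.23. ALDH1A3, the marker that rose in both A375M2 hairpin arms, went up by 1.21 in shNFYA (limma adjusted p = 5.17e-14). In A375M2 shFHL2 it rose by 1.01 (limma adjusted p = 9.04e-13), and in C32 shFHL2 it fell by 0.89 (limma adjusted p = 1.48e-10). SOX2 fell by 2.78 in shNFYA and stood at 0.13 and 0.11 in the shFHL2 arms, where it did not pass the test (limma adjusted p = 0.185 and 0.372).

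Genes of the interferon response to double-stranded RNA, which hairpin vectors can set off, were counted as well. Of 13, 8 rose and 1 fell in shNFYA (median 0.67), 9 rose and 2 fell in A375M2 shFHL2 (median 0.58), and 0 rose and 9 fell in C32 shFHL2 (median -0.45). ISG15, a ubiquitin-like protein, rose by 1.55 and 0.58 in A375M2 and fell by 0.45 in C32. OAS1, a sensor of double-stranded RNA, rose by 1.19 in shNFYA, stood at -0.17 in A375M2 shFHL2 (limma adjusted p = 0.102) and fell by 2.91 in C32. The C32 effect differed from the A375M2 effect at 78.3% of all probe sets by an interaction test that was added after the data were seen. The A375M2 effect crosses the array sets, and the C32 groups differ in the low values they share with A375M2 GFP. Line and array set cannot be told apart in this test. The part of this response in the values of the 10 genes was not tested.

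In PMEL against GFP, where 21.7% of genes were higher and 17.6% lower, the same lists had fewer calls. Counted as rose and fell, these were 2 and 2 of the 11 TLR4 genes, 1 and 3 of the 10 iron genes, 2 and 3 of the 11 EDIL3 genes, 2 and 7 of the 18 chondroitin genes, 4 and 2 of the 17 paralogs, 4 and 0 of the 11 methylation genes, 4 and 0 of the 8 stem-like markers, and 2 and 4 of the 13 interferon genes. LY96 fell by 0.74 and AXL by 1.21.

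The arrays held melanoma RNA by their markers, with lower melanocyte genes in the hairpin arms. SOX10, a neural crest factor of melanocytes and melanoma, averaged 11.79 to 12.88 in every group. MITF, the lineage factor, averaged 10.05 in A375M2 shFHL2, 8.95 in shNFYA, 14.37 in PMEL and 14.24 in GFP, and 14.20 in C32 shFHL2, against 14.96 in C32 GFP. Of 7 measured melanocyte markers, 6 fell and 0 rose in shNFYA and 7 fell in each shFHL2 comparison, and MLANA was under log2 4 in all A375M2 groups. The log2 of the summed melanocyte signal ran from 13.09 to 13.20 in A375M2 shFHL2, 12.98 to 13.05 in shNFYA, 15.16 to 15.23 in PMEL and 15.15 to 15.24 in GFP, and from 15.36 to 15.45 in C32 shFHL2, against 16.42 to 16.49 in C32 GFP. Its part in the values of the 10 genes was not tested. In these bulk arrays, fewer cells with a transcript and less of it per cell cannot be told apart.

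Markers of other cell types moved with the hairpin arms too. Of 8 macrophage markers, which matter for TLR4, 2 were measured: PTPRC was under log2 4 in all A375M2 groups, and LYZ, lysozyme, averaged 9.45 in A375M2 shFHL2, 9.40 in shNFYA, 3.64 in PMEL and 3.74 in GFP. In C32, PTPRC averaged 7.80 in shFHL2, against 8.63 in GFP, and LYZ 5.69, against 3.70. The 3 measured epithelial markers rose in both A375M2 hairpin arms and 0 passed the test in C32, where all 3 averaged under log2 4. The KRT14 rise in A375M2 shFHL2, to 2.97 from 2.49 in GFP, lay under log2 4 as well. Of 5 fibroblast markers 1 rose and 4 fell in both hairpin arms of A375M2, and in C32 2 rose and 1 fell. Among those that fell in A375M2, COL1A2 averaged 2.44 in each hairpin arm, against 3.92 in GFP, all under log2 4. The 1 endothelial marker measured, KDR, rose by 0.76 in A375M2 shFHL2, fell by 0.96 in shNFYA and fell by 2.35 in C32 shFHL2. The summed signals, as log2, ran from 9.34 to 9.51 in A375M2 shFHL2, 9.30 to 9.54 in shNFYA and 4.07 to 4.38 in GFP for macrophage markers, from 12.74 to 12.81, 12.10 to 12.19 and 11.35 to 11.51 in those groups for epithelial markers, and from 8.92 to 9.04, 8.74 to 8.93 and 11.50 to 11.69 for fibroblast markers. Their part in the values of the 10 genes was not tested.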

How the data were processed

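The values were deposited as log2 signals in a table of 18 arrays, and per the submitters' processing notes GCRMA made them (version not given in the sources used). This table (23416 probe sets, log2 0.53 to 16.72, 0 missing values) was used as deposited, and all columns matched a sample label. The platform annotation named 1 gene for 20264 probe sets, several for 995 and none for 2099, and 58 were controls. Symbols were updated by Entrez ID for 20260.

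A probe set was kept if at least 3 of 18 arrays reached log2 4. The linear model had 6 group means over 17 arrays (C32 GFP replicate 3 left out), with moderated variances that follow the mean level (limma 3.58.1 under R 4.3.3, 11 residual degrees of freedom), with Benjamini-Hochberg adjustment over 19506 probe sets, and calls were made at an adjusted p under 0.05. Lists and ranks used 1 probe set per gene, that with the highest mean. The fit was tested on simulated data. The number of arrays limits the precision: the median SE of a log2 difference was 0.0857 within A375M2 and 0.0958 in C32.

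Named genes are all probe sets of the 10 genes, FHL2 and NFYA, up to 4 called genes with the smallest adjusted p in a described comparison of each list, the 4 most alike genes on each side, and the genes ranked next after the last members. The 10 genes, the 8 gene lists and the 5 marker lists were chosen with earlier results of these data known. The interaction between the lines was added after the data were seen. Repeats changed the filter, the floor, the scaling, the probe set per gene, the variance model, the weights of arrays, the block or the arrays used. Python 3.11.15 with matplotlib 3.10.9 made the plots.

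Same-numbered arrays of different groups did not deviate together (median r = -0.0079 over 30 pairs, 0 of them over 0.1, against 7 of 60 pairs of unlike number), so the numbers were not taken as pairs. The lowest, r = -0.999, was that of A375M2 GFP and PMEL replicate 3, the arrays that are not independent, and the next was -0.250. Promoter windows are those of RefSeq.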

Additional observations from a re-analysis of the deposited data

Results flagged for a closer look

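The shFHL2 effect differed between the lines for 24 of the 25 named list genes, ALDH1A3 not counted. The interaction test used the same fit and was added after the data were seen. The A375M2 effect crosses the sets of arrays with equal low values. In C32, GFP arrays but not shFHL2 arrays shared such values with A375M2 GFP. Line and array set therefore cannot be told apart in this test. Over all probe sets 78.3% differed, so a single gene here is not unusual. For 7 of the 24 the effects were called in opposite directions. The C32 effect minus the A375M2 effect was 0.63 for MYD88, -4.01 for TLR3, 1.12 for TFRC, 6.05 for DSEL, -1.77 for ITGB3, -9.51 for AXL and -1.03 for ISG15 (log2; largest limma adjusted p = 2.45e-05). TLR3, ITGB3, AXL and ISG15 rose in A375M2 and fell in C32, and MYD88, TFRC and DSEL fell in A375M2 and rose in C32. ALDH1A3, outside this count, also rose in A375M2 and fell in C32, with a difference of -1.90 (limma adjusted p = 9.2e-14).

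For the other 17 the effects differed in size, or were called in 1 line. The same difference was 2.38 for LY96, -1.17 for TLR1, 0.41 for SLC11A2, 1.32 for STEAP3, 0.50 for FTL, -8.94 for LCN2, 1.23 for CHST11, -4.64 for NAP1L2 and 0.97 for ABCB6. It was 0.50 for CSGALNACT1, 0.36 for SUZ12, 2.41 for EHMT2, 0.83 for ITGB5, 2.47 for PROS1, 1.75 for NES, 0.83 for CD44 and -2.74 for OAS1.

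Low signals set the size of some of these values. With values under log2 4 set to 4, a step added after the data were seen, the difference was -7.65 for AXL, -3.42 for TLR3, 4.82 for DSEL, -7.14 for LCN2, -2.81 for NAP1L2 and -0.50 for TLR1, and the values of the other named genes stayed as given. With that floor the TLR1 effect was 0 in A375M2, and the AXL effect in C32 was -0.36.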

How the results depend on the processing

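In 977 of 990 recalculations of the tested values of the 10 genes, the direction and the side of the threshold were the same. The other 13 lost the call in PMEL against GFP, for TLR4 232068_s_at, ABCB5 240717_at or CHST7, and 0 results reversed. With values under log2 4 set to 4, or arrays rescaled, 62 of 1980 untested differences moved by more than the spread between arrays. Counts of called probe sets moved by over 1.5 times only where each gene had 1 probe set, which leaves 10940 to test. With the highest mean (or the largest variance) as the choice they were 9338 (9373) for A375M2 shFHL2 against GFP, 6845 (6518) for C32 shFHL2 against GFP, 9501 (9543) for A375M2 shNFYA against GFP, 7672 (7187) for A375M2 shFHL2 against shNFYA, 4361 (3987) for PMEL against GFP and 9396 (9341) between the GFP arrays of the lines. Leaving out each array in turn gave 15978 to 16511, 10599 to 11860, 16377 to 16901, 12116 to 12991, 6176 to 7623 and 15957 to 16603 in that order. With the replicate number as a block the counts were 16325, 11404, 16712, 12642, 7037 and 16391, and the numbers are not taken to pair the arrays. Low signal limits the C32 folds of CHST7, CDYL2, NAP1L3, LXN, EDIL3, ABCB5 and all TLR4 probe sets, the bright ones included. The 3 arrays a group limit small differences.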
